A study of Mus musculus with 18 samples.

Results

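Fibroblasts in which the reprogramming factors were induced for 2 or 4 days were compared with uncultured fibroblasts. The genes described are protein-coding genes whose FPKM, a level scaled for transcript length and library size, moved the same way at both days. Of 20788 protein-coding symbols in the table, 12951 were above 0 in a fibroblast library and 10927 moved the same way at both days. Of those with a mean of 1 FPKM or more over the 3 libraries, 9668 of 11107 (87.0%) did so, 6005 upward and 3663 downward. Small RNAs and pseudogenes were set aside.

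The cells came from C57BL/6 mice derived wholly from induced pluripotent stem cells, whose genome carries Pou5f1 (which encodes Oct4), Sox2, Klf4 and Myc under doxycycline control. Every fibroblast library carried these transgenes: Fib_0 had 0 days of culture and no doxycycline, and Fib_2D and Fib-4D had 2 and 4 days of culture with doxycycline. The organ the fibroblasts came from, the age of the mice and the number of animals are not stated in the labels. The series also holds 15 libraries of blood-forming cells, and it was designed to set the early response of blood cells beside that of another lineage. No fibroblast culture without doxycycline was analysed here, so induction and culture cannot be told apart within fibroblasts. With 1 library a condition there is no replicate error, and no p-value is given for fibroblasts alone.

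Fibroblasts are the cells of connective tissue that make collagen and other extracellular matrix, and in culture on a stiff surface they also assemble contractile actin fibres, as myofibroblasts do in wounds. Induced reprogramming starts from this program: Oct4, Sox2 and Klf4 are transcription factors that bind closed chromatin of pluripotency and developmental genes, and c-Myc drives ribosome production and cell division. Loss of mesenchymal gene expression, faster division and gain of epithelial junctions are known as early steps of the process, before the pluripotency genes themselves are switched on.

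Each difference below is a log2 difference of FPKM + 1 from the uncultured library, and values of a gene are given in the order uncultured, day 2, day 4. A gene is said to have risen or fallen where it passed 2-fold in that direction at both days, which leaves the genes nearest the line on either side at a difference of 1.0 in size. By this measure 1648 genes (14.8% of those counted) rose and 1222 (11.0%) fell. At 4-fold the counts were 241 (2.17%) and 436 (3.93%). The median counted gene was higher by 0.24 at day 2 and by 0.27 at day 4. With that shift set to 0 at each day, 1023 genes (9.21%) rose and 1632 (14.7%) fell, so the share of rises among the calls went from 57.4% to 38.5% at 2-fold and from 35.6% to 21.2% at 4-fold. Read depth is unknown, since low FPKM values followed no whole-read step, and an exact 0 can be a failed estimate. Levels of genes whose reads can be split between near copies in the genome are uncertain. Gapdh was at 8.17, 22.6 and 21.6 FPKM and Rpl3, a ribosomal protein, at 0.821, 1.28 and 1.26 FPKM. Whether this limit also holds for rises named below, such as Npm1, Pcna, Ccnb1 and Pgk1, was not tested. Protein-coding FPKM summed to 476858, 485475 and 474644.

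The uncultured library held the markers of its cell type label. These markers do not test the other part of the label, 0 days of culture. All 9 fibroblast markers were detected, led by Col1a1, Col1a2 and Vim, and their summed level was 14414 FPKM. Part of the markers of other cells were listed at 0 in all 3 fibroblast libraries. They were 4 of 7 for endothelium, 5 of 10 for leukocytes, 2 of 5 for keratinocytes and 4 of 8 for skeletal muscle. Among these were Pecam1, Cdh5, Tie1 and Emcn (endothelium), Ptprc, Aif1, Tyrobp and Cd52 (leukocytes), Krt15 and Trp63 (keratinocytes) and Myod1 and Myog (skeletal muscle). The remaining markers were above 0 in at least 1 library. The summed FPKM of the 7 endothelial markers was 0.358, 4.19 and 4.03, of the 10 leukocyte markers 11.9, 2.62 and 2.72, of the 5 keratinocyte markers 5.24, 3.97 and 19.3, of the 8 skeletal muscle markers 29.6, 0.628 and 0.536, and of the 5 adipocyte markers 25.6, 1.66 and 3.79. The summed fibroblast markers were at 1389 FPKM at day 2 and 2861 at day 4. In these bulk samples fewer cells of a type and less RNA per cell cannot be told apart.

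Of the 4 factors, Sox2 was at 1.77, 124 and 74.2 FPKM and rose. Pou5f1 was listed at 0 uncultured and reached 29.2 and 23.4 FPKM. Myc was already at 57.5 FPKM uncultured and rose to 305 and 173. Klf4 was at 13.6, 42.7 and 15.1 FPKM: it was above the uncultured level by 1.58 at day 2 and by only 0.14 at day 4, and did not pass. All 4 were lower at day 4 than at day 2. Gene-level FPKM does not tell the transgenes from the endogenous copies. Most endogenous pluripotency genes were not detected: of 29 other pluripotency genes 19, Nanog, Lin28a and Zfp42 among them, were listed at 0 in every fibroblast library, and only 6 reached the mean of 1 FPKM. None of these rose, and Klf2, a relative of Klf4 that is also expressed outside stem cells, fell (4.54, 0 and 0.456 FPKM).

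The largest rises were in genes that uncultured fibroblasts hardly expressed, several of which are known from liver, nerve tissue or barrier epithelia. Fetub, a protease inhibitor secreted by liver, was listed at 0 uncultured and at 105 and 325 FPKM at the 2 days. Spink12, a Kazal-type protease inhibitor, went from 0 to 125 and 265 FPKM, and Mobp, a protein of myelin, from 0 to 67.2 and 81.7. Stmn2, a neuronal regulator of microtubules, was at 1.43, 110.3 and 159 FPKM. Both induced libraries stood far above the uncultured value for each of these genes, and day 4 was the higher. Aldh3a1, an aldehyde dehydrogenase of cornea and other barrier epithelia, differed most between the days, with 0, 10.5 and 147 FPKM. Ahsg, a second liver-secreted protein of the fetuin family, reached 22.8 and 35.6 FPKM from 0.

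The other genes among the 15 largest rises were Gm10197, Bex1, Podxl, Nup62cl, Fndc3c1, Tmem35 and Nup210, with Sox2 and Pou5f1. Podxl, a sialomucin of podocytes and of pluripotent stem cells, peaked at day 2 at 52.8 FPKM and was at 16.5 at day 4. Bex1, a small protein first found in brain, showed the same order with 43 and then 26 FPKM. Nup210, a membrane glycoprotein of the nuclear pore, went from 0 to 27.1 and 19.1 FPKM. Of the 15 rises 12 were listed at 0 uncultured, so their size on this scale depends on the 1 FPKM added before the log. Of all 1648 genes that rose, 156 were listed at 0 uncultured.

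The largest falls included genes of secreted proteins. Ptn, the heparin-binding growth factor pleiotrophin, was at 1603 FPKM uncultured and at 2.40 and 10.5 after induction, a mean log2 difference of -8.00. Ctgf, a matricellular protein induced by TGF-beta and by YAP, was at 279.8, 6.93 and 11.4 FPKM. Both stayed far below the uncultured value at both days, and both were somewhat higher at day 4 than at day 2.

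Cthrc1 (38.3 FPKM uncultured), a secreted collagen-repeat protein, and Ankrd1 (36.2), a muscle ankyrin-repeat protein, were listed at 0 at both days. Has2, which makes hyaluronan, was at 54.1, 0.345 and 1.01 FPKM, and Cxcl12, the chemokine that retains blood stem cells in marrow, at 91.7, 1.40 and 2.77 FPKM. Mfap5, a microfibril protein, recovered most among the 12 described, from 1.83 FPKM at day 2 to 25.4 at day 4, against 273 uncultured. Col15a1, Wisp2, Lrrc17, Egr2 and Gfra1 were also among the largest falls. Together the 436 genes past 4-fold held 15.6% of protein-coding FPKM uncultured, 1.25% at day 2 and 2.18% at day 4, while the 241 genes past 4-fold upward held 0.341%, 2.17% and 2.37%.

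**Figure D1:**
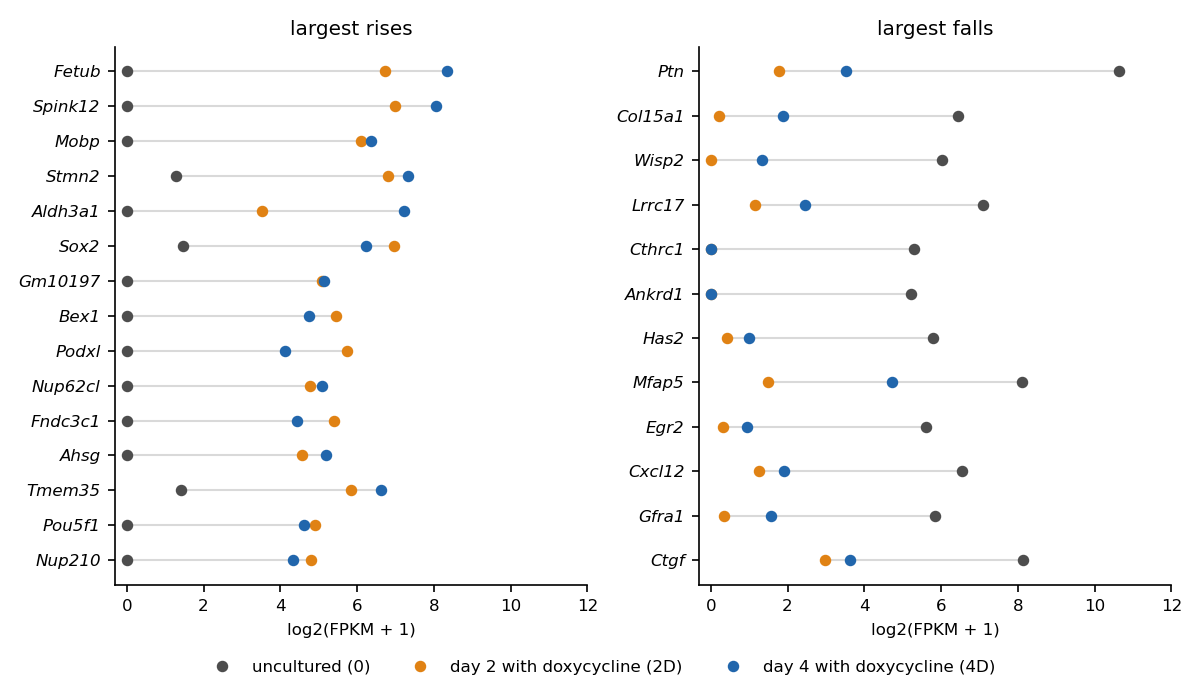
Level of the 15 largest rises (left) and of 12 of the 15 largest falls (right) in each fibroblast library, as log2(FPKM + 1); each point is 1 library. Most rises start at 0, and in the falls the day 4 point lies between the day 2 and uncultured points except where both induced libraries are at 0.

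Extracellular matrix genes fell broadly. Of 146 matrix genes found in the table, 121 were counted, and 80 fell and 6 rose; 57 fell past 4-fold. Their share of protein-coding FPKM was 8.47% uncultured, 0.832% at day 2 and 1.79% at day 4. The median difference was -2.61 at day 2 and -1.98 at day 4, against 0.24 and 0.27 over all counted genes.

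Fibrillar collagens, which form the tensile fibres of connective tissue, fell in 7 of 9 counted genes. Col1a1 was at 5436, 258 and 708 FPKM, and Col1a2, its partner chain in type I collagen, at 3583, 228 and 691 FPKM. Col3a1 was at 986, 43.8 and 150.4 FPKM and Col5a1, a chain of the collagen that nucleates fibrils, at 646, 30.3 and 80.4 FPKM. In each of these genes the day 2 library was lowest, and at day 4 the level was 12.4% (Col5a1) to 19.3% (Col1a2) of the uncultured one. Col27a1 (8.22, 3.97 and 2.47 FPKM) did not pass at both days, and Col2a1, the collagen of cartilage, rose from 0 to 1.46 and 5.40 FPKM. The other cartilage and bone markers did not reach the mean of 1 FPKM: Acan, aggrecan, was at 2.76, 0 and 0 FPKM and Sp7, osterix, at 2.12, 0 and 0.493 FPKM, and Comp, Bglap and Ibsp were listed at 0.

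Of 14 other collagens counted, 9 fell and 1 rose. Col6a1, a chain of the beaded filaments around cells, was at 1484, 58.7 and 191 FPKM, and Col12a1, which decorates type I fibrils, at 386, 16.3 and 49.7 FPKM. Col15a1, a collagen of basement membrane zones, was at 85.5, 0.169 and 2.68 FPKM. The network collagens of basement membrane differed from these: Col4a1 (139, 38.8 and 77.8 FPKM) and Col4a2 (118, 40.9 and 85.7 FPKM) did not pass at both days, and Col4a5 was at 12.2, 18.3 and 48.9 FPKM, above the uncultured level at both.

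Matrix glycoproteins and proteoglycans fell in 30 of 48 counted genes. Fbln2, a fibulin that links elastic fibres to basement membrane, was at 1504, 42.8 and 109 FPKM. Tnc, the wound-associated glycoprotein tenascin C, was at 871, 22.9 and 40.9 FPKM, and Postn, periostin, at 656, 12.5 and 124 FPKM. Tnc was 1.78-fold higher at day 4 than at day 2, and Postn 9.97-fold. The laminin chains Lamb1 (216, 145 and 169 FPKM) and Lamc1 (89.3, 99.6 and 103 FPKM) did not pass in either direction. Dcn, the collagen-binding proteoglycan decorin and a fibroblast marker, was at 36.5, 11 and 70.0 FPKM, below the uncultured value at day 2 and above it at day 4. Gpc3, a cell-surface proteoglycan of embryonic tissues, rose (27.3, 103 and 119 FPKM).

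Enzymes that modify and crosslink collagen fell in 15 of 24 counted genes and rose in 2. Lox, the oxidase that starts crosslinks, was at 643, 17 and 72.1 FPKM, and its relatives Loxl1, Loxl2 and Loxl3 differed by -4.52, -3.38 and -4.69. P4ha3, a prolyl hydroxylase subunit, was at 117, 2.71 and 5.67 FPKM, whereas P4ha1, another subunit of that enzyme, was at 111, 49.7 and 104 FPKM and did not pass. Proteases of the matrix and their inhibitors fell in 19 of 26 genes and rose in 1. They included Timp3, an inhibitor of matrix metalloproteases, at 170.3, 7.81 and 17.9 FPKM, Adam12 and Adam19, membrane metalloproteases, at 115, 3.22 and 16.7 FPKM and 83.5, 4.16 and 4.89 FPKM, and Serpinf1, pigment epithelium-derived factor, at 1185, 35.1 and 129 FPKM.

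**Figure D2:**
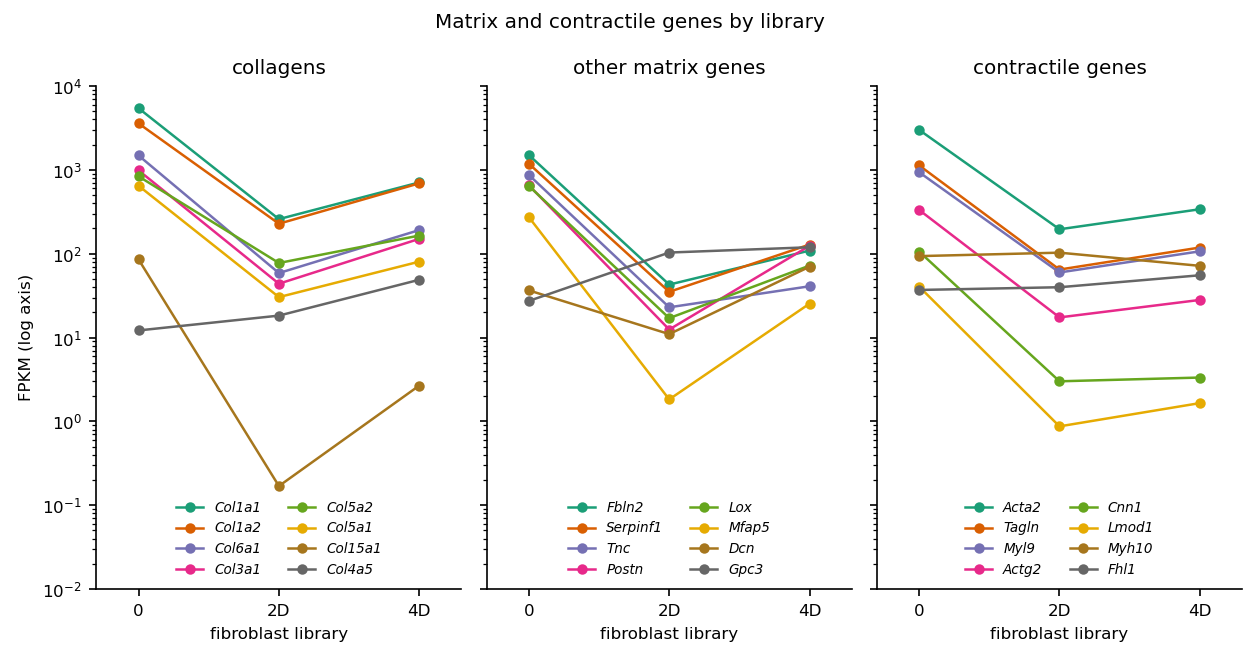
FPKM on a log axis in the 3 fibroblast libraries (0, uncultured; 2D and 4D, days 2 and 4 with doxycycline) for 8 collagens, 8 other matrix genes and 8 contractile genes, each line a gene. Most lines drop at 2D and turn up at 4D; Dcn ends above its uncultured level, and Col4a5, Gpc3, Myh10 and Fhl1, which did not fall, are shown for contrast.

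Contractile and smooth muscle genes fell with the matrix. Of 33 counted members 25 fell, 19 of them past 4-fold, and none rose. Their share of protein-coding FPKM was 3.47% uncultured, 0.607% at day 2 and 0.744% at day 4. Acta2, the smooth muscle actin that defines myofibroblasts, was at 2996, 196 and 339 FPKM. Tagln, an actin-bundling protein of smooth muscle, was at 1130.2, 64.7 and 118 FPKM, and Myl9, the regulatory light chain of smooth muscle myosin, at 937, 59.7 and 107 FPKM. These genes were at 5.72% (Tagln) to 6.53% (Acta2) of the uncultured level at day 2 and at 10.5% (Tagln) to 11.4% (Myl9) at day 4. Cnn1, calponin, was at 106, 3.01 and 3.33 FPKM, and Lmod1, leiomodin, was at 40.5, 0.872 and 1.65 FPKM. The nonmuscle members differed among themselves. Myh9, nonmuscle myosin, was at 1251, 161 and 206 FPKM and Flna, filamin A, at 1399.9, 247 and 307 FPKM, and both fell. Actn4 was at 715, 401 and 379 FPKM and Tagln2 at 327, 203 and 170.4 FPKM, neither past 2-fold. Myh10 and Fhl1 (93.6, 103 and 71.6 FPKM, and 36.9, 39.8 and 55.3 FPKM) were near their uncultured levels.

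Many contractile and growth-response genes are known targets of serum response factor (Srf), which binds the CArG box, a decamer with only A or T between its CC and GG. In RefSeq promoter windows (build GRCm38.p6, 250 bases before to 50 after each start) a CArG box on either strand was found for 5 of the 29 contractile genes with an entry (17.2%), for 3 of the 22 among those that fell (13.6%) and for 1.81% of all 27025 genes in the promoter table. The letters GGAATG or their complement, the core bound by TEAD factors, the partners of YAP, were found for 41.4%, 36.4% and 16.6% in the same order. Other motifs searched were also more frequent in the contractile genes than in all genes. They were the CCAAT box (58.6% against 41.1%), AP-1 site (10.3% against 5.95%), E2F site (6.9% against 2.6%) and ISRE core (6.9% against 3.99%). The TATA box was near the share of all genes (17.2% against 15.7%), and the remaining motifs were not found. All genes here were not limited to counted ones. The windows of Myl9 (chr2:156775214-156775513, plus strand), Cnn2, a calponin relative (chr10:79988350-79988649, plus strand), and Egr2, a growth-response zinc finger factor (chr10:67537619-67537918, plus strand, among several start sites listed), are printed because each held a CArG box and each gene fell. Capitals mark the CArG box, which begins 161, 56 and 72 bases before the start. Egr2 was taken from outside the contractile list. Windows of Fhl1 and Srf held CArG boxes as well, and neither gene passed 2-fold at both days. A match of letters does not show that a factor was bound.
Myl9: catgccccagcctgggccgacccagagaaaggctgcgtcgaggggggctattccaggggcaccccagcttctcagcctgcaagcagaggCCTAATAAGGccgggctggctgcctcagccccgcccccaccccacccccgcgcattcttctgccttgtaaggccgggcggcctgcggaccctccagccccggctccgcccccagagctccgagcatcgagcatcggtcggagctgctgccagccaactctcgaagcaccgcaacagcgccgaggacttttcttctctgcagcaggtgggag
Cnn2: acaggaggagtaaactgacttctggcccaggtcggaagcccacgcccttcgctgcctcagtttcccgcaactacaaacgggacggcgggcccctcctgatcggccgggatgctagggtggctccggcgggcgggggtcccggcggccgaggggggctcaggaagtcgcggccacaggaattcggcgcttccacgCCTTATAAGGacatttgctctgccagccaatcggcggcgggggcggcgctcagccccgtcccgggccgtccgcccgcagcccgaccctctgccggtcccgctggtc
Egr2: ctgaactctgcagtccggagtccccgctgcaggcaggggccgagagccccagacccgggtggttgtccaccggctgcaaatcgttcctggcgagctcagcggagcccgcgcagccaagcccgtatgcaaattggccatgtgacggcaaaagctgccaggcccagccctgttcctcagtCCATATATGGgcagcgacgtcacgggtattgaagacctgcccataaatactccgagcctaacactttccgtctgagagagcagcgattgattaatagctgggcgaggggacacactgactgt
Cnn2 was at 282, 19.3 and 30.5 FPKM and Egr2 at 47.8, 0.249 and 0.921 FPKM. Srf itself was at 36.3, 20.0 and 13.9 FPKM and did not pass at both days.

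The list of YAP and SRF targets fell in 13 of 20 members and rose in none, with a median of -1.62. Besides Ankrd1 and Ctgf, Cyr61, the matricellular protein CCN1, was at 239, 24.4 and 33.6 FPKM, F3, tissue factor, at 102, 7.35 and 8.18 FPKM and Amotl2, an angiomotin, at 169, 17.5 and 21 FPKM. Immediate early genes, which are transcribed within minutes of serum or stress, fell in 19 of 25 and rose in none. Egr1 was at 97, 5.25 and 11.3 FPKM, Junb at 124, 16.5 and 15.3 FPKM and Sgk1, a serum-induced kinase, at 57.1, 1.49 and 2.70 FPKM. At day 4 all 3 were still far below the uncultured level. Klf10, a TGF-beta-induced member of the Klf4 family, was level at 9.00, 7.06 and 10.6 FPKM.

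Surface proteins of mesenchymal cells fell in 17 of 26 counted genes and rose in none. Cd248, endosialin, was at 224, 5.20 and 14.2 FPKM, and Thy1, the surface antigen much used to sort fibroblasts, at 926, 51.2 and 90.4 FPKM. The 2 PDGF receptors parted: Pdgfrb was at 162, 3.30 and 16.2 FPKM and fell, while Pdgfra was at 64.5, 11 and 40.5 FPKM, low at day 2 only. Cd44, the hyaluronan receptor, and Ly6a, Sca-1, stayed high, at 129.6, 101 and 77.5 FPKM and 141, 91.3 and 181 FPKM.

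Mesenchymal transcription factors were mixed, with 11 of 26 counted genes lower and 3 higher. Snai1, the repressor of E-cadherin that drives the change from epithelium to mesenchyme, was at 69.2, 3.16 and 5.23 FPKM. Hic1, a zinc finger repressor, was at 32.8, 2.81 and 1.37 FPKM, Prrx2, a homeobox factor of limb and craniofacial mesenchyme, at 88.2, 4.97 and 18.1 FPKM and Runx2, the factor of bone formation, at 40.0, 9.15 and 7.65 FPKM. Snai2, Zeb1 and Zeb2, which act in the same program as Snai1, did not pass: Snai2 was at 35.5, 12.3 and 20.3 FPKM, Zeb1 at 27.2, 21.8 and 18.3 FPKM and Zeb2 at 53.5, 25.1 and 29.8 FPKM. Mef2c and Meox2, factors of muscle and somite, rose (1.08, 14.6 and 12.2 FPKM, and 0.902, 9.79 and 8.54 FPKM). Hox genes, which record position along the body axis, were mostly kept: of 27 counted, 4 (14.8%) rose and none fell. Over all counted genes 14.8% rose and 11.0% fell. The Hox median was 0.08, or -0.18 with the overall shift removed, where 1 rose and 1 fell. Hoxc4 rose (7.76, 23.5 and 19.8 FPKM), and Hoxc6 (25, 38.8 and 52.6 FPKM) and Hoxc8 (20.9, 12.1 and 16.9 FPKM) did not pass.

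Secreted signals fell broadly. Growth factors and their receptors fell in 26 of 42 counted genes and rose in 3, with a median of -1.92. Igf2, a fetal growth factor, was at 185, 4.14 and 7.76 FPKM, and Igfbp5, a binding protein of the same pathway, at 208, 7.89 and 8.03 FPKM. Etv4, a transcription factor induced by FGF signalling, was at 20.2, 0.783 and 0.673 FPKM. All 3 were at 2.23% (Igf2) to 4.18% (Igf2) of the uncultured level over both days. Met, the receptor of hepatocyte growth factor, went the other way, with 2.90, 38.3 and 26.7 FPKM (named after its values were seen).

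Cytokines and chemokines fell in 16 of 25 and rose in 1. Cxcl1 and Cxcl5, which recruit neutrophils, were at 70.9, 1.07 and 3.86 FPKM and 54.8, 0.639 and 3.18 FPKM, and Csf1, the growth factor of macrophages, at 230.0, 9.29 and 11.8 FPKM. Nfkbia, the inhibitor of NF-kappaB and its direct target, was level at day 2 and higher at day 4 (23.3, 27.2 and 45.3 FPKM). In the TGF-beta, activin and BMP pathway 22 of 44 counted genes fell and 1 rose. Among ligands and antagonists, Inhba, the activin subunit, was at 214, 9.05 and 17.5 FPKM, and Grem1, a BMP antagonist, at 63.3, 2.28 and 13.8 FPKM. Tgfbi and Pmepa1, induced by TGF-beta, were at 122, 2.29 and 15.2 FPKM and 202, 12.6 and 21.3 FPKM. The signal carriers Smad2 (42.8, 67.6 and 53.6 FPKM) and Smad4 (55.5, 51.9 and 51.7 FPKM) did not pass. The WNT list had 12 of 33 genes lower and 3 higher. Wisp1 was at 251, 12.9 and 26.7 FPKM, and Fzd1, a WNT receptor, at 27.1, 2.15 and 3.91 FPKM, whereas the co-receptors Lrp5 (14.8, 20.0 and 16.6 FPKM) and Lrp6 (20.9, 21.6 and 17.4 FPKM) did not pass.

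Genes of ribosome production, the classical output of c-Myc, rose in part. Of 49 members, all of them counted, 19 (38.8%) rose and none fell, against 14.8% and 11.0% of all counted genes. The median difference was 1.30 at day 2 and 0.87 at day 4, and with the overall shift removed 10 rose. Npm1, nucleophosmin, was at 189, 911 and 937 FPKM, and Ncl, nucleolin, at 217, 944 and 575 FPKM. Polr1e, a subunit of RNA polymerase I, was at 13.3, 67.1 and 52.7 FPKM, Nolc1, a nucleolar chaperone, at 44.5, 204 and 136 FPKM and Nop10, a part of the RNA-modifying H/ACA complex, at 59.5, 232 and 214 FPKM. Of the 19 genes that rose, 18 were lower at day 4 than at day 2; the exception was Npm1. CACGTG, the E-box that Myc binds, was found in the promoter window of 23.8% of the 42 members with an entry and of 8.09% of all genes in the promoter table. The E2F site (7.14% against 2.6%), the cyclic AMP response element (4.76% against 2.03%) and the octamer (2.38% against 1.97%) were also above that share, and the remaining motifs searched were below it. Of the 10 genes whose window held CACGTG, only Wdr43, a ribosome assembly factor named after its values were seen, rose (43.6, 141 and 93.4 FPKM).

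Part of the cell cycle genes rose as well. In the G1/S and replication list 16 of 50 genes (32.0%) rose and none fell (median 1.01). In the G2/M list 13 of 51 (25.5%) rose and none fell (median 0.76), against 14.8% and 11.0% of all counted genes. With the shift removed these counts were 10 and 6, and 9.21% of all counted genes rose. Pcna, the sliding clamp of DNA polymerase, was at 8.26, 37.4 and 34.8 FPKM, Lig1, the replication ligase, at 67.9, 314 and 186 FPKM and Pola1, a subunit of the primase complex, at 11, 49.4 and 44 FPKM. E2f2, an activating E2F factor, was nearly off in uncultured cells (0.693, 7.96 and 7.32 FPKM). Of the G2/M genes, Ccnb1, cyclin B1, was at 6.39, 22 and 20.1 FPKM, Mad2l1, of the spindle checkpoint, at 40.5, 151 and 110.5 FPKM and Nusap1, a spindle protein, at 17.2, 59.9 and 72 FPKM. Uncultured cells already expressed the machinery: Cdk1 was at 158, 330.3 and 255 FPKM and Top2a at 95.4, 184 and 189 FPKM, neither past 2-fold at both days. All 16 G1/S genes that rose, and 12 of the 13 G2/M genes, were lower at day 4 than at day 2.

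CDK inhibitors and p53 targets moved both ways, with 8 of 34 (23.5%) higher and 5 (14.7%) lower, or 4 and 5 with the shift removed. Over all counted genes 14.8% rose and 11.0% fell. Rb1, the retinoblastoma protein that restrains E2F, rose from day to day (5.54, 16.2 and 32.5 FPKM), as did Trp53inp1, a p53 target (4.97, 12.5 and 32.2 FPKM). Cdkn1a, p21, was above its uncultured level at both days (123, 169 and 276 FPKM) without passing. Cdkn2b, p15, which TGF-beta induces, fell (34.8, 4.85 and 15.2 FPKM), and so did Gadd45a (75.2, 8.84 and 15.9 FPKM). Among chromatin enzymes 9 of 54 (16.7%) rose, near the share of all counted genes, and 2 (3.70%) fell. With the shift removed 5 rose and 5 fell. Suv39h2, a histone H3 lysine methyltransferase, was at 1.79, 14 and 8.44 FPKM, Dnmt3b, a de novo DNA methyltransferase, at 0.828, 5.57 and 4.18 FPKM and Tet2, which oxidises methylcytosine, at 2.62, 7.72 and 16.2 FPKM. Dnmt1, the maintenance methyltransferase, was at 52.3, 128 and 87.2 FPKM and did not pass at both days.

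**Figure D3:**
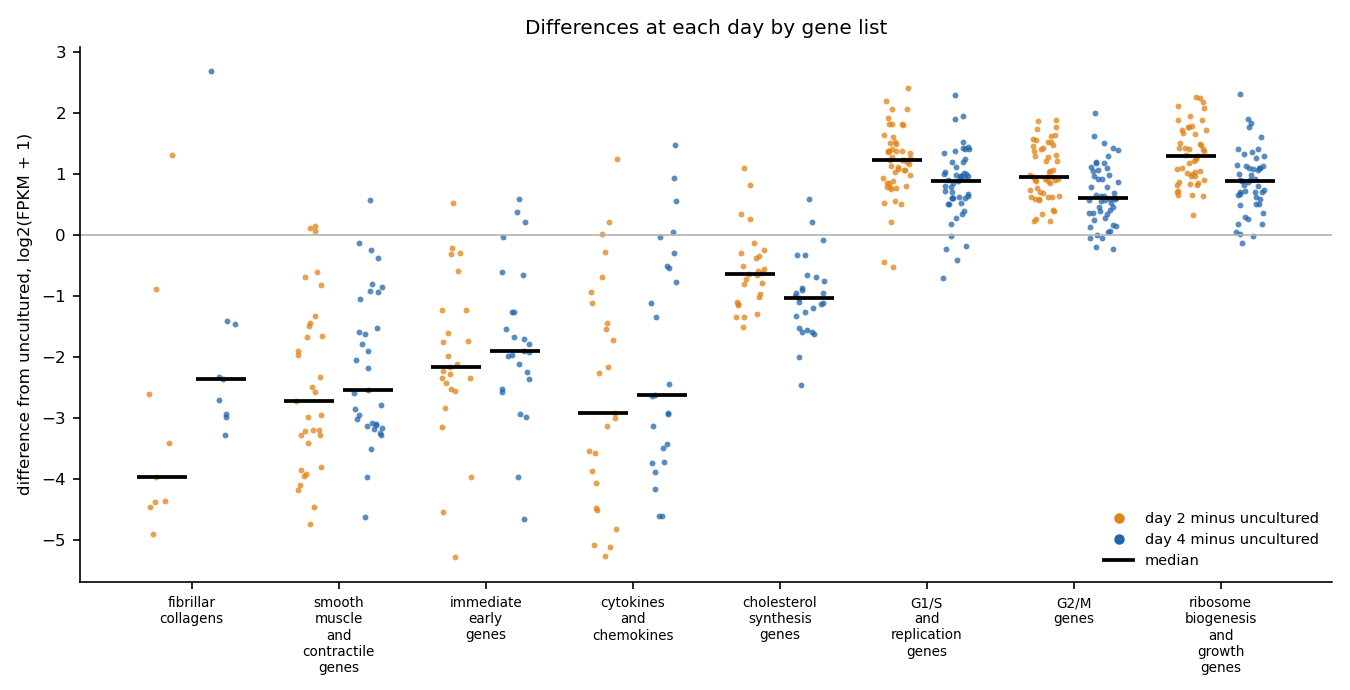
Log2 differences of FPKM + 1 from the uncultured library at day 2 (orange) and day 4 (blue) for the counted members of 8 gene lists; each point is a gene and each bar a median. The medians of collagens and contractile genes lie below 0 at both days, and those of replication and ribosome biogenesis genes lie above 0 and lower at day 4 than at day 2.

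Glycolytic and respiratory genes moved both ways. Of 24 glycolytic genes 6 (25.0%) rose and 1 (4.17%) fell, against 14.8% and 11.0% of all counted genes. With the shift removed 3 rose and 3 fell. Slc2a3, a high-affinity glucose transporter, was at 0.973, 22.6 and 54.1 FPKM, and Slc16a1, a lactate carrier, at 12.8, 51.5 and 38.6 FPKM. Pdk1, which turns pyruvate away from mitochondria, was at 20.4, 44.4 and 109.5 FPKM and Pgk1, a glycolytic kinase, at 21.9, 62 and 73.9 FPKM. Aldoa (315, 210.0 and 358 FPKM) and Tpi1 (310.4, 240.0 and 402 FPKM), also glycolytic enzymes, did not pass. Of 57 respiratory chain genes 8 rose and 1 fell, or 4 and 2 with the shift removed, and their summed share of protein-coding FPKM was 2.23%, 2.86% and 3.12%. Ndufs1, of complex I, was at 19.8, 99.4 and 74.1 FPKM and Uqcrc2, of complex III, at 102, 287 and 295 FPKM, while Atp5g1, an ATP synthase subunit with near copies in the genome, fell (34.4, 9.90 and 8.60 FPKM).

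Cholesterol synthesis genes fell in 7 of 27 and rose in none, with a median of -0.64 at day 2 and -1.04 at day 4. Lss, lanosterol synthase, was at 91, 35.2 and 22 FPKM, and Mvd, a decarboxylase of the mevalonate pathway, at 48.8, 18.7 and 15.5 FPKM. Genes of the list went on down between the days, unlike the collagens: of the 7 that fell only 1 was higher at day 4 than at day 2. Genes of the ATF4 stress response and serine synthesis fell in 15 of 31 and rose in 4. Trib3, a pseudokinase, was at 103, 3.01 and 7.13 FPKM, Chac1, which degrades glutathione, at 68.6, 5.38 and 7.48 FPKM and Ddit3, CHOP, at 225, 16.7 and 47.4 FPKM. Shmt1, cytosolic serine hydroxymethyltransferase, rose (6.60, 75.2 and 63 FPKM), and Asns, asparagine synthetase, was at 207, 160.0 and 154 FPKM and did not pass. NRF2 antioxidant genes had 6 of 32 (18.8%) lower and 5 (15.6%) higher, against 11.0% and 14.8% of all counted genes. Hmox1, haem oxygenase, was at 98.1, 16.1 and 18.6 FPKM, and Gpx3, a secreted peroxidase, at 82.6, 0.851 and 27.3 FPKM, with most of its return between the days.

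Most genes that mark other lineages were listed at or near 0, and some rose strongly. A gene near 0 in part of the libraries is counted only through those where it is high, so the counts in these lists describe the named members and not the lists. Of 48 epithelial junction genes and regulators 23 were listed at 0 in all 3 libraries and 14 were counted, of which 5 rose and 3 fell. Perp, a desmosomal protein, was at 0.464, 9.83 and 22.2 FPKM, Dsp, desmoplakin, at 0.334, 2.80 and 9.04 FPKM and Tjp1, the tight-junction scaffold ZO-1, at 20.0, 55.8 and 58.1 FPKM. Cdh1, E-cadherin, rose only to 1.34 and 2.47 FPKM from 0, and Cdh3, P-cadherin, fell (13.6, 0 and 0.226 FPKM). Of 13 barrier and cornified envelope genes counted, 5 rose and none fell, and at day 4 alone 11 were past 2-fold. Krtdap, a keratinocyte differentiation protein, was at 0, 2.63 and 27.5 FPKM, Sprr1a, a cornified envelope precursor, at 0, 1.18 and 17.2 FPKM and Adh7, an alcohol and retinol dehydrogenase, at 9.999, 48.1 and 86.3 FPKM. Krt14, the keratin of basal keratinocytes, moved with them at day 4 (2.49, 1.26 and 16 FPKM), while Trp63 and Krt15 were listed at 0; the part of such cells in these values was not tested.

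Of 48 neural genes 21 were counted, of which 9 rose and 3 fell. Beside Mobp and Stmn2, Sox21, a relative of Sox2, was at 0, 12.7 and 11 FPKM and Npy, neuropeptide Y, at 0, 11.1 and 6.58 FPKM. Dpysl3, of the growth cone, was high throughout (167, 272 and 563 FPKM), and Nes, nestin, was level (10.6, 8.05 and 9.97 FPKM). Liver-type genes other than Fetub and Ahsg did not rise: 17 of 25, Alb, Afp and Apoa1 among them, were listed at 0, and Apoe fell (46.2, 2.15 and 6.85 FPKM). Of 27 muscle genes 5 were counted, each through its uncultured level, and fell, led by Acta1, skeletal actin (24.2, 0.628 and 0.536 FPKM). Interferon response and antigen presentation genes did not rise, and 2 of 24 (8.33%) were lower, against 11.0% of all counted genes. B2m, the light chain of MHC class I, was at 336, 235 and 293 FPKM.

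**Figure D4:**
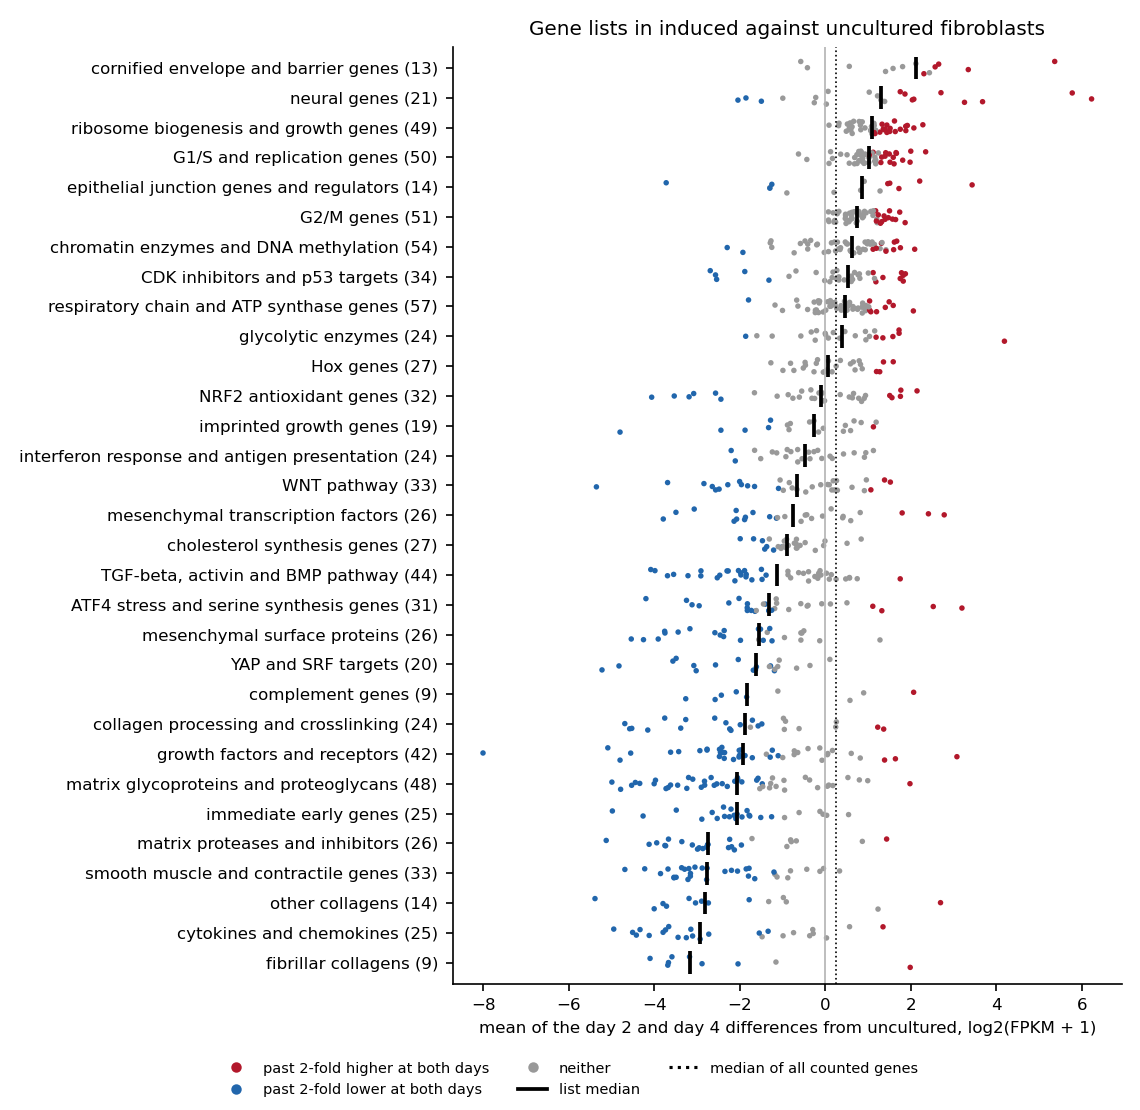
Mean of the day 2 and day 4 log2 differences of FPKM + 1 for the counted members of 31 gene lists with 9 or more counted genes (number in brackets); each point is a gene and each bar the list median. The medians of collagens, cytokines, contractile genes and proteases lie to the left of the median of all counted genes (dotted, 0.26), and those of ribosome biogenesis and replication genes to the right; lists of other lineages include members counted only through the libraries where they are high.

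Between day 2 and day 4 the falls partly reversed, whereas all counted genes were balanced. Of the 1222 genes that fell, 908 (74.3%) were higher at day 4 than at day 2, against 51.7% of all counted genes. Of these 1222 genes 190 rose 2-fold or more from day 2 to day 4 and 9 dropped 2-fold further. Matrix genes turned back in 72 of the 80 that fell, and contractile genes in 21 of 25. Of the 1648 genes that rose, 656 (39.8%) were higher at day 4 than at day 2. The comparisons of day 2 and day 4 with the uncultured library share that library, and each day is 1 library.

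Blood cells, unlike fibroblasts, were also cultured under a control title. They were long-term and short-term haematopoietic stem cells (LT-HSC, ST-HSC) and myeloid progenitors (MP) from the same kind of mouse, uncultured (3 libraries) or after 2 or 4 days under the titles N and D (6 libraries each). The series design describes N as the control without doxycycline, whereas their doxycycline field says yes; groups here follow the titles. Each blood library came from 25 picked cells amplified by PCR, and each fibroblast library from Trizol RNA and a standard Illumina preparation, so lineage and library method cannot be told apart.

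Of the 15 largest fibroblast rises, 7 were higher in all 6 blood D libraries than in any of the 6 N libraries, against 3.15% of all counted fibroblast genes. Mobp was listed at 0 in every uncultured and N library and was at 61.8 to 216 FPKM in D. Stmn2 was at up to 5.34 FPKM in N and at 105 to 1267 in D, and Fetub at up to 8.88 in N and 22.6 to 1833 in D. Spink12, Ahsg, Fndc3c1 and Sox2 were the others, and for all 7 the ranges of N and D did not overlap. Pou5f1 reached at most 2.34 FPKM in a blood D library, against 29.2 and 23.4 in induced fibroblasts. Nup210 was high in all blood libraries, at 105 to 252 FPKM in N and 54.8 to 115 in D, above both induced fibroblast values.

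Over whole groups, 31 of the 241 genes past 4-fold upward in fibroblasts (12.9%) were above all N in all blood D libraries, against the 3.15%, and 1 was below. Of the 436 genes past 4-fold downward, 15 (3.44%) were below all N in all blood D libraries, against 1.51% of counted genes, and 6 (1.38%) were above. Of the 15 largest falls 8 were at 1 FPKM or less in every blood library. That share was not computed over all counted genes, so the count describes only these falls.

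**Figure D5:**
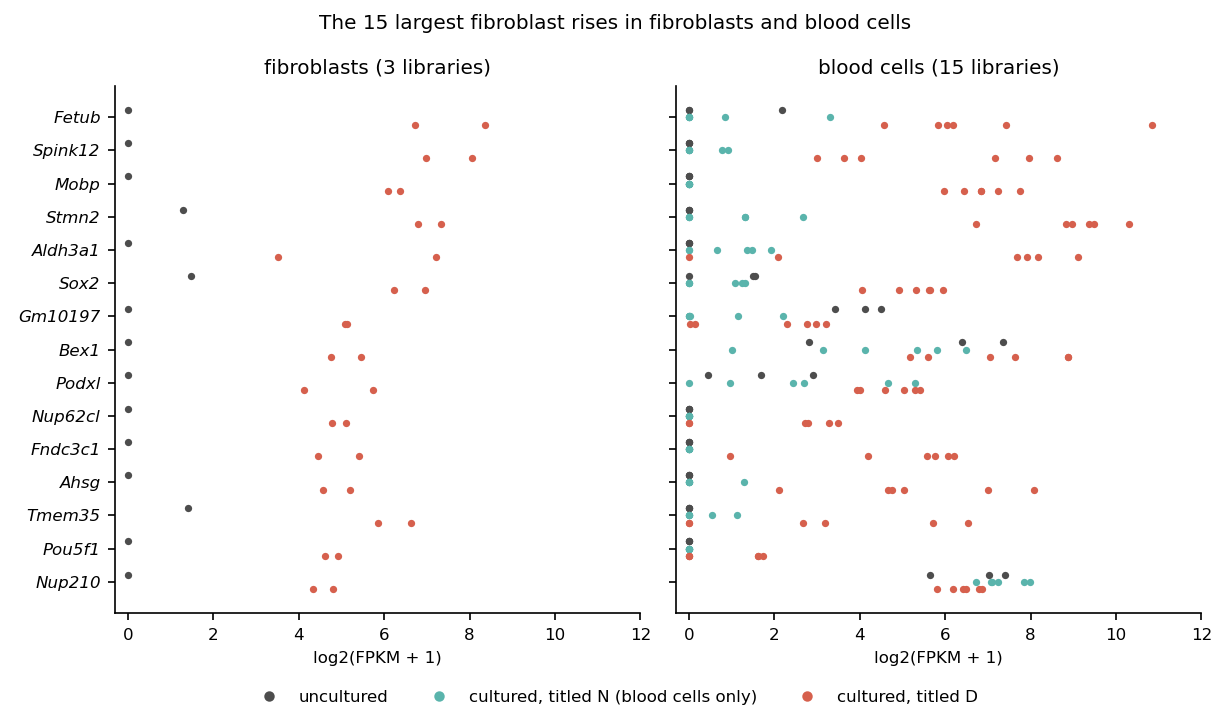
Level of the 15 largest fibroblast rises as log2(FPKM + 1) in fibroblasts (left, 3 libraries) and blood cells (right, 15 libraries); each point is a library, coloured by uncultured, N or D. Fetub, Spink12, Mobp, Stmn2, Sox2, Fndc3c1 and Ahsg show D points above all N points, whereas Nup210 is high in all blood libraries.

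Whether the fibroblast change differed from the blood change was tested with limma's interaction term over the 12 uncultured and D libraries, days 2 and 4 serving as replicates. The N libraries were not in this fit, so in the blood change too induction and culture cannot be told apart. Of 11711 protein-coding genes fitted, the fibroblast change was higher than the blood change in 37 (0.316%) and lower in 47 (0.401%) at a Benjamini-Hochberg adjusted p under 0.05; 1396 had an unadjusted p under 0.05. The estimate was -8.63 ± 1.26 (SE) for Ptn (adjusted p = 0.0186) and 4.83 ± 0.764 for Nup210 (adjusted p = 0.023). Leaving out either induced fibroblast library left no call in either direction, so each call rests on both. Of the 84 calls, 17 were for genes listed at 0 in all 9 blood libraries, where the blood cells add no spread.

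Of the other 67 called genes 42 had estimates of opposite sign in fibroblasts and blood. Some of the 42 had a blood change near 0, such as Col15a1 (0.04). A call selects for changes that differ and so favours opposite signs, and the share over all fitted genes was not computed. Timp1, an inhibitor of matrix metalloproteases, was at 479, 40.0 and 93.7 FPKM in fibroblasts, and in blood it was listed at 0 in all uncultured libraries and at 14.2 to 168 FPKM in D, an estimate of -8.24 ± 1.08 (SE, adjusted p = 0.0151). Cyp1b1, a cytochrome P450 of mesenchymal cells, showed the same crossing, with 95.7, 5.34 and 12.1 FPKM in fibroblasts and 2.76 to 42.7 FPKM in blood D from 0 uncultured. Fxyd6, a regulator of the sodium pump, and Fzd1 did so too, with estimates of -6.90 and -5.72 (adjusted p = 0.0243 and 0.0325). The calls of Cyp1b1 and Fzd1 were each lost in several fits that left out a single blood library. In the other direction, Pygl, the liver form of glycogen phosphorylase, was at 1.23, 6.01 and 13.4 FPKM in fibroblasts and went from 25.2 to 103 FPKM in uncultured blood to at most 1.504 in D (7.53 ± 1.22, adjusted p = 0.0243). Dyrk3, a protein kinase, was at 0.637, 10.2 and 6.29 FPKM in fibroblasts and at 69.9 to 227 FPKM in uncultured blood against 7.66 to 18.4 in D. 2610020H08Rik and Rps18 were also called upward (6.61 and 5.05, adjusted p = 0.0275 and 0.0151); Rps18, a ribosomal protein with near copies in the genome, is uncertain. For rises seen in both lineages the difference did not pass: the estimate was -0.62 ± 0.692 (SE) for Mobp and 0.89 ± 0.923 for Sox2 (adjusted p = 0.768 and 0.747), which does not show that the changes were equal.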

How the data were processed

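RNA sequencing of 3 fibroblast and 15 blood libraries was taken as the FPKM table the authors deposited, with 1 value per gene and library. Per the submitters' processing notes, TopHat and Cufflinks were used with genome build mm9; their versions and roles, and the annotation, were not given in the sources used here; FPKM as the unit follows from those tools and the values. Symbols on several entries (158) were summed. Gene class came from GENCODE M21 by Ensembl ID (31808 symbols) or RefSeq by symbol (1447); 3400 symbols had no class and were set aside. Because GENCODE M21 and the RefSeq promoters are on GRCm38, mm9 coordinates are not printed.

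Differences are on log2(FPKM + 1), so those of genes near 0 depend on the added 1 FPKM and understate the change. Genes with a mean of 1 FPKM or more over the 3 libraries were counted. Named were the 15 largest rises and falls past 4-fold at both days with 10 FPKM or more in a library, the 4 factors, up to 6 members of each list by size among those past 2-fold, unchanged members for contrast, and 5 genes each way of the interaction; some genes that these rules select are not reported here. Members and the 44 lists (1317 genes, 7 entries unmatched) were chosen with earlier results of these data known. The blood D and N ranges were added after the data were seen.

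limma 3.58.1 (R 4.3.3, trend and robust options) tested the interaction with cell type as block and 6 residual degrees of freedom. The fit was tested on simulated data. Motifs were searched in RefSeq promoter windows, for which 29 of 33 contractile and 42 of 49 ribosome biogenesis genes had an entry. Python 3.11.15 and pandas 2.3.3 did the remaining steps. Alternatives covered the added value, the filter, the scaling, each day alone, limma's options, a day term and leaving out each library.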

Additional observations from a re-analysis of the deposited data

Results flagged for a closer look

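For 30 of the genes named in the report the change from uncultured to D differed between fibroblasts and the 3 blood cell types (limma interaction over 12 libraries, Benjamini-Hochberg adjusted p from 0.0151 to 0.0479). The genes were named by their fibroblast values or because this same fit called them, so the calls are no independent support for those changes. Values are fibroblast minus blood log2 changes of FPKM + 1, and no cause was tested.

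The change was lower in fibroblasts for secreted and signalling genes: Ptn (-8.63), Wisp2 (-5.35), Fzd1 (-5.72), Gfra1 (-5.23), Cxcl12 (-5.06), Ctgf (-4.82), Igfbp5 (-4.55) and Inhba (-3.98). It was lower for matrix genes and matrix enzymes: Timp1 (-8.24), Col15a1 (-5.42), Lrrc17 (-5.30), Cthrc1 (-5.30), Has2 (-5.07), Tnc (-4.88), P4ha3 (-4.57), Loxl1 (-4.52), Adam19 (-3.97) and the laminin chain Lamc1 (-3.27), whose own fibroblast values hardly moved while the blood change was 3.45. The same held for Cnn1 (-4.68), Lmod1 (-4.22), Ankrd1 (-5.22), Amotl2 (-3.86), Cd248 (-4.53), Cyp1b1 (-6.97) and Fxyd6 (-6.90). It was higher in fibroblasts for Pygl (7.53), 2610020H08Rik (6.61), Dyrk3 (5.65), Rps18 (5.05) and Nup210 (4.83). Of these 30 genes 13 were listed at 0 in all 9 blood libraries, so their values are the fibroblast changes themselves. None of the 30 was called without Fib_2D or without Fib-4D.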

How the results depend on the processing

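Counts of fibroblast genes past 4-fold depended on the value added before the log: with 0.1 FPKM added 535 genes were higher, and with 5 FPKM added 38 were higher and 202 lower, and 814 were higher at 2-fold. With the median difference set to 0 at each day, 1023 genes were higher at 2-fold and 155 at 4-fold. At day 2 alone (without Fib-4D) 382 genes were higher and 743 lower at 4-fold, and at day 4 alone (without Fib_2D) 431 were higher. Of 305 list medians recomputed, 274 moved little, 30 moved more and 1 reversed: with no filter the cartilage and bone markers had a median of -1.35. Aldh3a1 was no longer past 4-fold with 5 FPKM added. Of 380 recomputed values of named genes 332 kept their side of the threshold, 48 lost it and none reversed. In fibroblasts alone the only loss was that of Aldh3a1, and all other losses were in calls against blood. There Cyp1b1 and Fzd1 each lost the call without LT-HSC_0, LT-HSC_2D, ST-HSC_2D, LT-HSC_4D or MP_4D.

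Calls of the fibroblast change against the blood change moved most. They were 11 higher and 21 lower with 0.1 FPKM added, 70 and 196 with 5 FPKM added and 99 and 291 with no filter. With libraries scaled to the same median 91 were lower, without limma's trend and robust options 102 were lower, and with day as a further term 23 were higher. Leaving out each library gave 0 to 98 higher and 0 to 69 lower; the fit without Fib_0 could not be made. The calls were 0 and 0 without Fib_2D and without Fib-4D, 14 and 14 without LT-HSC_0, 15 and 20 without LT-HSC_2D, 20 and 25 without MP_2D, 18 and 22 without LT-HSC_4D, and 10 and 5 without MP_4D. Without ST-HSC_0 98 were higher, and without ST-HSC_4D 24. Single libraries of different days stand in for replicates, so for genes above 0 in some blood library the p-values rest on the spread between days and cell types. For the 17 called genes at 0 in all blood libraries of the fit, only Fib_2D against Fib-4D gives spread. Among these, Cthrc1 and Ankrd1 were at 0 in both, so their SE of 0.741 reflects no spread of their own and was borrowed from other genes by limma. Every call also rests on Fib_0 alone for the uncultured fibroblast level, whose error was not measured. Read depth is unknown, and values near 0 carry no counting error here. No paired analysis was possible because no group has replicate libraries that numbers could pair; in the interaction fit each cell type, as a block, is compared with its own uncultured library.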

Other observations

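Long non-coding RNAs fall outside the protein-coding rule, but 2 imprinted ones, picked after their values were seen, followed Igf2. H19, which lies beside Igf2 and is expressed from the maternal copy, was at 1433 FPKM uncultured, 0.805 at day 2 and 1.67 at day 4. Meg3, which lies beside Dlk1, was at 284 FPKM uncultured, 8.66 at day 2 and 32.4 at day 4. Dlk1, a fetal transmembrane protein, was at 65.3, 15.9 and 7.84 FPKM. Of 19 imprinted growth genes counted, 5 fell and 1, Snrpn (6.25, 15.4 and 14.4 FPKM), rose; Grb10, an adaptor that restrains insulin signalling, was at 165, 128 and 147 FPKM and did not pass. Symbols not classed as protein-coding took 9.04% of all FPKM uncultured, 15.1% at day 2 and 15.5% at day 4.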
